A study of Homo sapiens with 6 samples.

Results

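Heat shock proteins and J-domain cochaperones were examined after silencing of FSCN1, which encodes fascin, a protein that bundles actin filaments, in the lung adenocarcinoma cell line A549. The members were the protein-coding genes of the count table whose symbols begin with HSPA, HSPB, HSPD, HSPE, HSPH or HSP90 (the HSP class) or with DNAJA, DNAJB or DNAJC (the DNAJ class), which gave 75 of 30230 genes, 31 in the HSP class and 44 in the DNAJ class. Polyadenylated RNA was sequenced from 3 NC libraries and 3 siFSCN1 libraries. NC is named a control plasmid in the sample labels and a scrambled siRNA in the study's methods, and the siFSCN1 cells received a single siRNA against FSCN1, so that what follows from the loss of FSCN1 and what follows from that siRNA sequence cannot be told apart. All cells were collected 48 h after transfection, and the study calls the 3 libraries of a group biological replicates. The labels do not say whether they came from separate cultures, so the p-values measure the spread between these libraries, which may be partly technical.

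Molecular chaperones help other proteins to reach or keep their folded state. HSP70 proteins bind and release unfolded stretches in a cycle driven by ATP. J-domain proteins, encoded by the DNAJ genes, deliver clients and stimulate ATP hydrolysis, and HSP110 proteins and other nucleotide exchange factors reset the cycle. HSP90 completes the maturation of kinases, receptors and other clients, HSP60 with its HSP10 lid folds proteins inside mitochondria, and small heat shock proteins hold unfolded proteins until HSP70 takes them over. Several cytosolic genes of these families are known targets of the heat shock factor HSF1, which binds inverted repeats of the block GAA. Several chaperones of the endoplasmic reticulum (ER) are known targets of the unfolded protein response.

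The letters of these regulatory elements could be read in the RefSeq promoter windows of GRCh38.p14, which run from 250 bases before to 50 bases after each transcript start and were available for 66 of the 75 members. A match here is a description of letters and not a measured binding site. The heat shock element was searched on both strands as 3 alternating blocks, GAA, TTC and GAA or the reverse, with any 2 bases between neighbours. It was present in 172 of 35116 windows, which belonged to 166 of 27305 genes (0.608%), and in the windows of 7 of the 66 members (10.6%). The sequences of 6 of these members are shown because they carry the element upstream of a start, with the blocks in capitals and each written in the direction of its gene. DNAJA1, the seventh, carried the blocks at bases 4 to 16 after its start.
HSPA8 (chr11:123062170-123062199, minus strand): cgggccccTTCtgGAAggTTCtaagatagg
HSP90AA1 (chr14:102087111-102087140, minus strand): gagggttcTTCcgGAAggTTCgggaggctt
HSP90AB1 (chr6:44247823-44247852, plus strand): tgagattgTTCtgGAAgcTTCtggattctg
HSPA6 (chr1:161524458-161524487, plus strand): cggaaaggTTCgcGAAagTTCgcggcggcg
DNAJB6 (chr7:157336865-157336894, plus strand): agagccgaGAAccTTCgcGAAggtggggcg
HSPD1 (chr2:197500061-197500090, minus strand): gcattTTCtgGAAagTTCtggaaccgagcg

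The blocks of HSPA8 lay 55 to 43 bases before its start, those of HSP90AA1 88 to 76 bases and those of HSPA6 74 to 62 bases before theirs. HSP90AB1 has 3 windows and HSP90AA1 and HSPD1 have 2 each, and the sequences shown for them lie within 250 bases upstream of only 1 of those starts. A shorter form with 2 blocks, GAANNTTC, was present in the windows of 8.21% of all genes and in 17 of the 66 members (25.8%). The sequences of 3 members that carried only the short form are shown because they are among the members that fell by the most.
HSPA1A (chr6:31815426-31815455, plus strand): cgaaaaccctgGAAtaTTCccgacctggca
HSPA1B (chr6:31827622-31827651, plus strand): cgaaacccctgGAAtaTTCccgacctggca
DNAJB1 (chr19:14518426-14518455, minus strand): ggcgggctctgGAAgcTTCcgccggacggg

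The ER stress response element, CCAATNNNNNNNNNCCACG on either strand, was present in 27 windows (0.0769%). Its only members here were HSPA5 and HSP90B1, the 2 most abundant ER chaperones of the HSP class, and this search was added after the fold changes were known.
HSPA5 (chr9:125241385-125241414, minus strand): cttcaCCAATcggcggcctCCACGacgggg
HSP90B1 (chr12:103930211-103930240, plus strand): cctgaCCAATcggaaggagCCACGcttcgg

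Libraries held 27967301 to 36560919 counts. The silencing was present in every siFSCN1 library: FSCN1 FPKM (read fragments scaled to transcript length and to the mapped total of the library) was 45.0, 47.2 and 46.0 in NC and 4.46, 2.82 and 3.19 in siFSCN1, a log2 fold change of -3.89 ± 0.09 (SE; adjusted p = 8.10e-16). Simple epithelial keratins KRT8 and KRT18 were abundant in all libraries, with the 5 epithelial markers summing to 2610 to 3000 FPKM in NC and 1530 to 1850 in siFSCN1. Nearly all of that sum was KRT8 and KRT18, which were lower in siFSCN1, as was KRT19. The other markers went the other way: CDH1 had a mean of 9.23 FPKM in NC and 26.4 in siFSCN1, and EPCAM 3.15 and 4.3. Fibroblast markers summed to at most 0.4 FPKM, endothelial markers to at most 0.04 and leukocyte markers to at most 0.68 in any library, and the alveolar type II markers in the table to at most 0.13, so the surfactant genes of the parent cell type were near 0.

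Levels below are the deposited FPKM, which are scaled to each library's total, whereas fold changes are from edgeR's quasi-likelihood test on the counts with TMM scaling, with p-values adjusted by Benjamini-Hochberg over 17076 tested genes and a threshold of 0.05. The scale matters for small changes. Scaling to library totals raised the all-gene median log2 fold change by 0.19 and upper quartile scaling by 0.12, so a gene with equal FPKM in both groups has a fold change slightly below 0 on the TMM scale. Of 48 members that passed the test, 40 kept their direction and their call under all 4 other scalings (RLE, upper quartile, library totals and loess offsets on abundance). The exceptions were HSPD1, HSPA4L, HSPE1-MOB4, HSP90B1, HSPBAP1, DNAJB14, DNAJC14 and DNAJC22.

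The HSP class was mostly lower in siFSCN1 cells, whereas the DNAJ class was divided. Of 27 HSP members tested, 18 fell, 4 rose and 5 did not pass, with a median log2 fold change of -0.53. Of 40 DNAJ members tested, 14 fell, 12 rose and 14 did not pass, with a median of 0.01. This division depended on the scale, since 11 DNAJ members were lower and 19 higher with library totals, and 10 lower and 18 higher with limma on FPKM. Over all tested genes, 33.2% were called lower and 35.1% higher, and the median was 0.03. The HSP median stayed between -0.57 and -0.30 under every alternative tried, with the smallest size under loess offsets on abundance. The DNAJ median lay between -0.02 and 0.20 and was on either side of 0 depending on the setting. In bulk RNA a lower level in every cell and fewer cells that express a gene cannot be told apart.

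Large changes were few. At least 2-fold falls were called for HSPA6, HSPA1B, HSPA1A, DNAJB1 and DNAJC25-GNG10, and at least 2-fold rises for DNAJB9, DNAJC12 and DNAJC28, against 4.85% of all tested genes called at least 2-fold lower and 11.7% at least 2-fold higher. No DNAJ gene was called at least 2-fold lower with upper quartile scaling, library totals, a minimum mean FPKM or limma on FPKM. CPM (counts scaled to TMM-adjusted library size) of the groups did not overlap for 22 of 27 HSP and 29 of 40 DNAJ members, while 71.3% of all tested genes did not overlap. The other 8 members were too low to be tested, with at most 12 counts in any library: HSPB2, HSPB2-C11orf52, HSPB3, HSPB9, DNAJA4, DNAJB7, DNAJC5B and DNAJC5G.

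**Figure D1:**
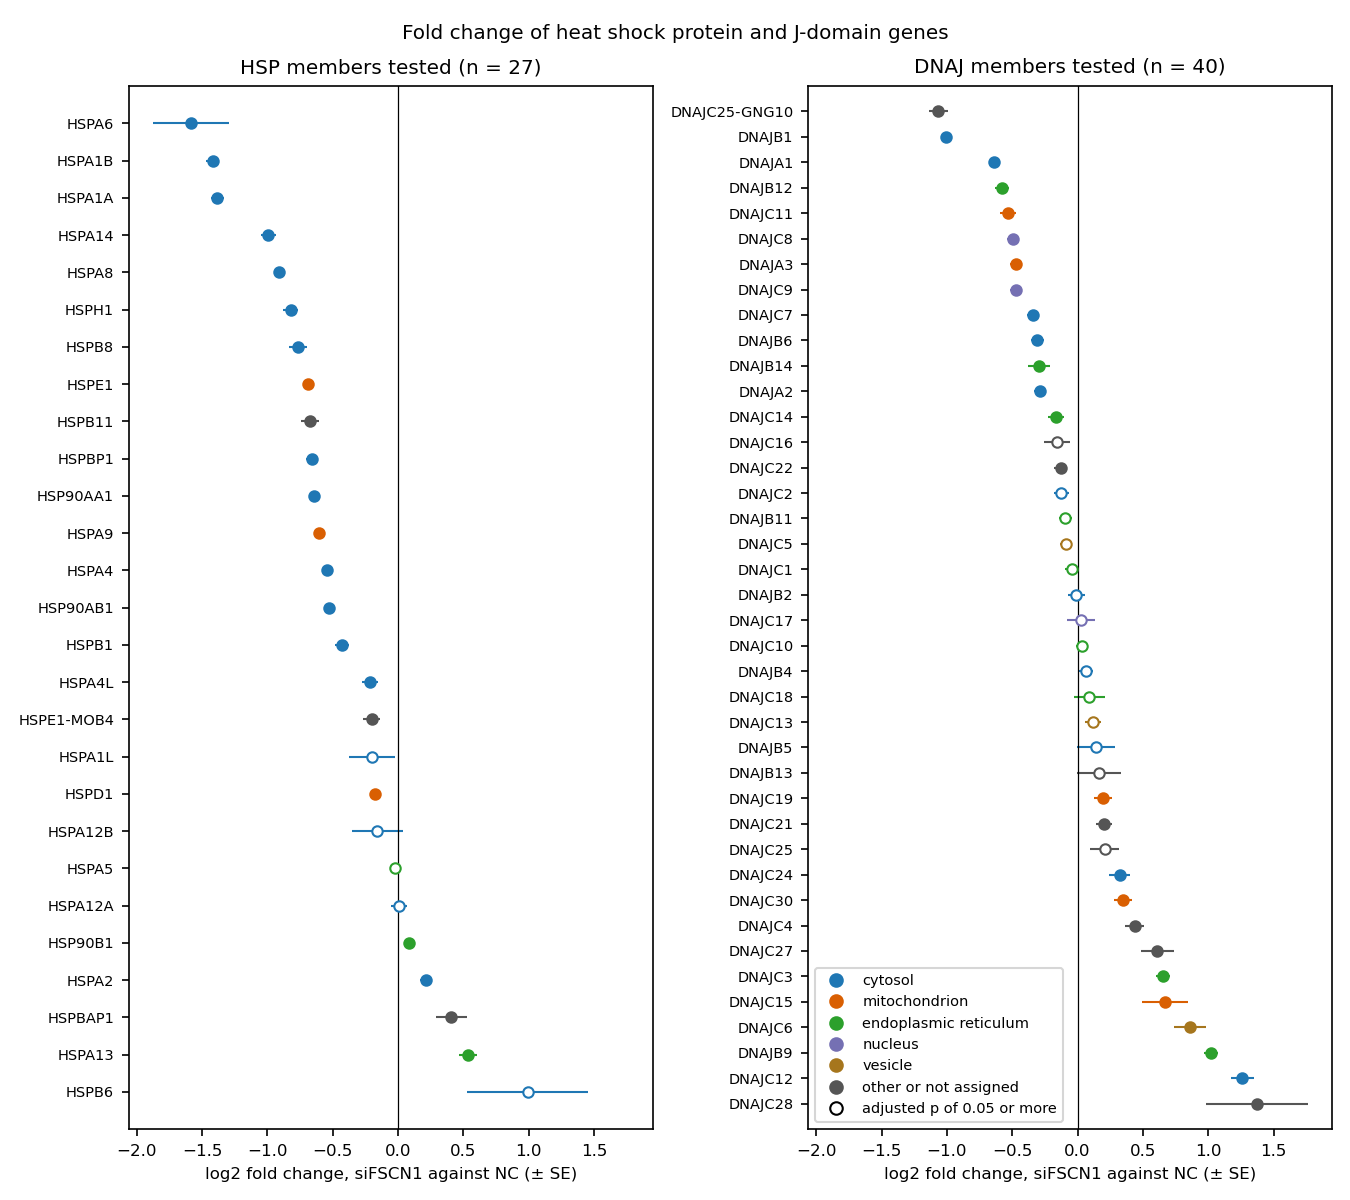
Log2 fold change of siFSCN1 against NC on the TMM scale (x axis) for each tested HSP gene (left) and DNAJ gene (right), with bars of 1 SE, colours for the known main compartment of the product and open symbols for an adjusted p of 0.05 or more. The HSP genes run from HSPA6 at -1.59 to HSPB6 at 0.99, which did not pass, and 18 of the 22 filled symbols lie below 0, while the DNAJ genes are spread on both sides from DNAJC25-GNG10 at -1.06 to DNAJC28 at 1.37.

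Fold change and abundance were related across the whole transcriptome, which bears on a class that holds many abundant genes. Among the 3132 tested genes at 10 FPKM or more on average, 65.7% were called lower and 19.3% higher, with a median log2 fold change of -0.28. Of the 15 HSP members in that range 12 fell and 2 rose, with a median of -0.54. Of the 9 DNAJ members in that range 7 fell and 1 rose, with a median of -0.47. Between 1 and 10 FPKM, where the median of all genes was -0.005, 5 of 7 HSP members fell (median -0.67), while 7 of 24 DNAJ members fell and 7 rose (median 0.01). When the trend with abundance was removed by loess offsets, the HSP median was -0.30 and the DNAJ median 0.003, against -0.004 over all genes. The difference between the class medians was -0.54 on the TMM scale and -0.30 with loess offsets.

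**Figure D2:**
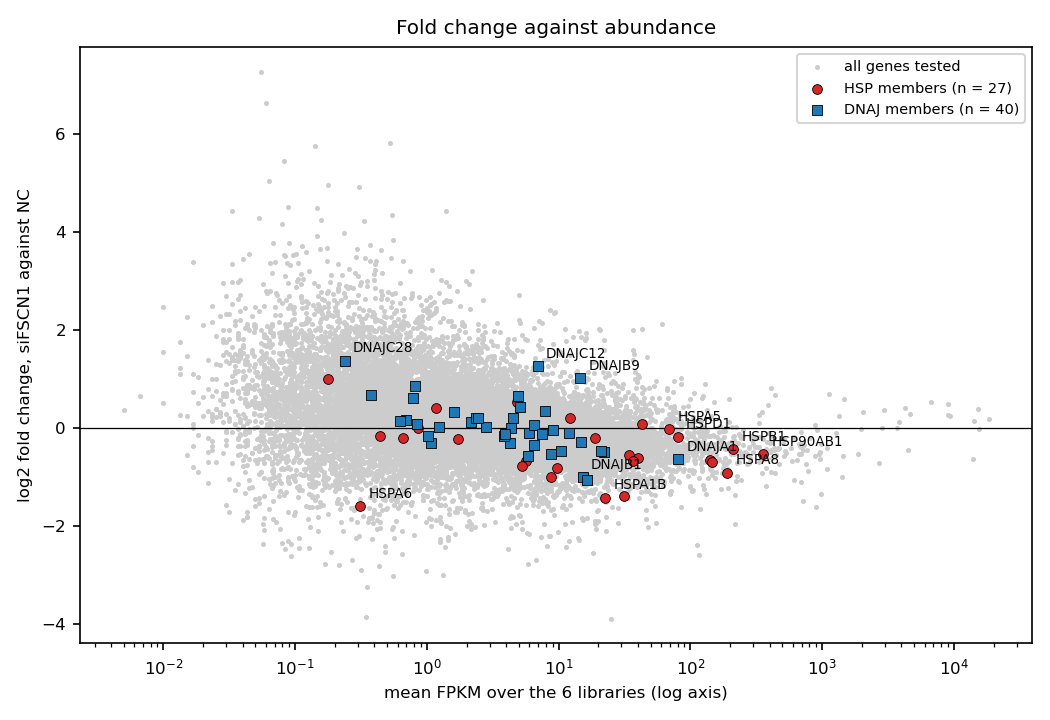
Log2 fold change of siFSCN1 against NC (y axis) against mean FPKM over the 6 libraries (x axis, log scale) for all tested genes with a mean FPKM above 0 (grey), HSP members (red circles) and DNAJ members (blue squares). The grey cloud tilts from a median of 0.40 below 1 FPKM to -0.41 above 100 FPKM, and HSPA1B (-1.42), HSPA8 (-0.91), DNAJB9 (1.02) and DNAJC12 (1.26) are among the named members.

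The stress-inducible HSP70 genes fell by the most. HSPA1A and HSPA1B, neighbouring genes on chromosome 6 that encode near-identical inducible HSP70 proteins, are the standard readout of the heat shock response. HSPA1A FPKM was 40.9, 43.9 and 46.4 in NC and 19.8, 17.8 and 18.8 in siFSCN1 (log2 fold change -1.38 ± 0.05, adjusted p = 6.40e-14). HSPA1B FPKM was 30.8, 31.5 and 33.1 in NC and 13.8, 12.6 and 13.5 in siFSCN1 (-1.42 ± 0.05, adjusted p = 3.50e-14). Every siFSCN1 library lay below every NC library for both. Because only uniquely mapped reads were counted, reads from the sequence the genes share may be missing, and the division between them is uncertain, but the HSPA1B to HSPA1A ratio was 0.727 ± 0.0213 (SD, n = 3) in NC and 0.709 ± 0.00984 in siFSCN1 (exact permutation test, two-sided, p = 0.3).

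HSPA6, an HSP70 gene that is nearly silent without stress, had only 27 to 52 counts in NC and 14 to 17 in siFSCN1. Its FPKM was 0.49, 0.35 and 0.52 in NC and 0.16, 0.16 and 0.19 in siFSCN1, with a log2 fold change of -1.59 ± 0.29 (adjusted p = 1.03e-04). HSPA1L, the testis-enriched HSP70 gene that is transcribed away from HSPA1A with starts 260 bases apart, was at 0.58 to 0.73 FPKM in NC and 0.62 to 0.69 in siFSCN1 and did not pass (-0.20 ± 0.18, adjusted p = 0.329). With loess offsets HSPA1L was called lower (-0.46, adjusted p = 0.0273). The short heat shock element of HSPA1A and that of HSPA1L are the same genomic site.

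The constitutive cytosolic HSP70, HSPA8, was the third most abundant member. Its FPKM was 235, 242 and 241 in NC and 148, 135 and 145 in siFSCN1 (-0.91 ± 0.04, adjusted p = 3.75e-13), so the libraries did not overlap and the level was 0.531 of that in NC on the TMM scale. HSPA8 hosts the small nucleolar RNAs SNORD14C, SNORD14D and SNORD14E in introns and has 17 named pseudogenes, but pseudogene rows of the table held 0.0263% of the counts of HSPA8. HSPA14, an HSP70 relative of the ribosome-associated complex, was at 10.8, 11.2 and 11.7 FPKM in NC and 6.78, 5.90 and 6.31 in siFSCN1 (-0.99 ± 0.06, adjusted p = 2.33e-11).

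A cytosolic HSP70 gene moved the other way. HSPA2, known for its role in the male germ line, was at 10.9, 10.2 and 10.6 FPKM in NC and 14.5, 13.2 and 13.5 in siFSCN1 (0.21 ± 0.05, adjusted p = 7.44e-04). Its call and direction held under every alternative. HSPA12A and HSPA12B, distant relatives of HSP70, were below 1 FPKM in every library and did not pass on the TMM scale. HSPA12A was called higher with library totals (0.19, adjusted p = 0.0128).

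HSP110 proteins and HSPBP1 release nucleotide from HSP70, and all 4 members of this kind were called lower on the TMM scale. For comparison, 33.2% of all tested genes and 65.7% of those at 10 FPKM or more were called lower. HSPA4 was at 38.7, 39.1 and 38.5 FPKM in NC and 29.3, 28.9 and 31.2 in siFSCN1 (-0.54 ± 0.04, adjusted p = 7.69e-10). HSPH1, its stress-inducible relative, was at 11.4, 12.2 and 12.02 FPKM in NC and 7.30, 7.05 and 8.28 in siFSCN1 (-0.82 ± 0.05, adjusted p = 1.97e-10). HSPBP1 was at 43.1, 44.04 and 42.7 FPKM in NC and 32.4, 30 and 29.7 in siFSCN1 (-0.66 ± 0.04, adjusted p = 2.37e-10). For these 3 genes no siFSCN1 library reached an NC library. HSPA4L was at 1.62 to 1.82 FPKM in NC and 1.65 to 1.73 in siFSCN1, and its log2 fold change of -0.21 ± 0.06 (adjusted p = 0.00571) did not pass with library totals (-0.03, adjusted p = 0.737).

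Both cytosolic HSP90 genes fell, with the inducible form slightly more so. HSP90AB1, the constitutive form and the most abundant member, was at 397, 409 and 401 FPKM in NC and 317, 305 and 317 in siFSCN1 (-0.53 ± 0.04, adjusted p = 3.07e-10). HSP90AA1, the inducible form, was at 158, 166 and 164 FPKM in NC and 116, 111 and 123 in siFSCN1 (-0.64 ± 0.04, adjusted p = 1.20e-10). Groups did not overlap for either gene. The ratio of HSP90AA1 to HSP90AB1 within a library was 0.404 ± 0.00644 in NC and 0.373 ± 0.0138 in siFSCN1 (SD, n = 3), without overlap (exact permutation test, two-sided, p = 0.1, the smallest that 3 against 3 libraries can give).

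Small heat shock proteins were represented by HSPB1, since most of the family is muscle-enriched and was near 0 here. HSPB1, which also binds actin filaments, was at 232, 226 and 232 FPKM in NC and 216, 185 and 174 in siFSCN1 (-0.43 ± 0.05, adjusted p = 9.68e-07). The siFSCN1 libraries of HSPB1 were spread widely, with the first closest to NC. HSPB8, which works with the cochaperone BAG3 in selective autophagy, was at 7.01, 6 and 5.94 FPKM in NC and 3.98, 4.36 and 4.17 in siFSCN1 (-0.77 ± 0.07, adjusted p = 3.01e-08). HSPB6 had 5 to 9 counts in NC and 8 to 21 in siFSCN1 and did not pass (0.99 ± 0.46, adjusted p = 0.0656), though it did with upper quartile scaling (1.11, adjusted p = 0.0402), with library totals (1.18, adjusted p = 0.0299) and without siFSCN1 2 (1.29, adjusted p = 0.0222).

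**Figure D3:**
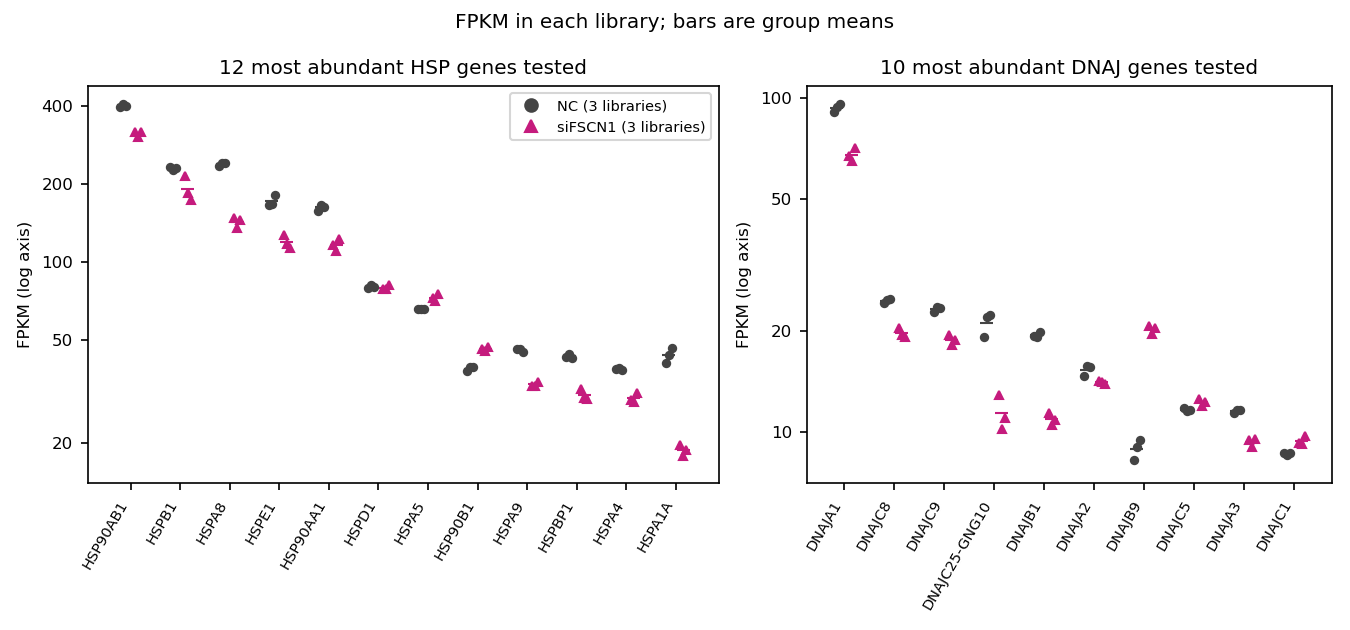
FPKM (y axis, log scale) of the 12 most abundant HSP genes (left) and the 10 most abundant DNAJ genes (right) in the 3 NC libraries (grey circles) and the 3 siFSCN1 libraries (magenta triangles), with bars at the group means. HSPA1A and HSPA8 show the widest gaps of the left panel, HSPD1 overlaps at about 80, HSPA5 and HSP90B1 lie higher in siFSCN1 on this scale, and DNAJB9 is the DNAJ gene with a wide upward gap.

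Inside mitochondria, HSPD1 and HSPE1 form the chaperonin and its lid and are transcribed in opposite directions from starts 105 bases apart on chromosome 2, but their RNA levels did not move alike. A second HSPD1 start lies 539 bases from that of HSPE1, and the HSPD1 sequence shown above is upstream of this second start only. HSPE1 was at 166, 167 and 182 FPKM in NC and 128, 117 and 114 in siFSCN1 (-0.69 ± 0.04, adjusted p = 1.09e-10). HSPD1 was at 79.1, 81.6 and 80.3 FPKM in NC and 78.9, 78.5 and 81.8 in siFSCN1, which overlap, and its log2 fold change of -0.18 ± 0.04 (adjusted p = 2.89e-04) was 0.01 (adjusted p = 0.807) with library totals and 0.16 (adjusted p = 7.54e-04) with loess offsets. The HSPE1 to HSPD1 ratio, which no scaling by 1 factor per library can move, was 2.09, 2.05 and 2.26 in NC and 1.62, 1.5 and 1.39 in siFSCN1 (exact permutation test, two-sided, p = 0.1). HSPE1 and HSPD1 have 26 and 18 named pseudogenes, and pseudogene rows of the table held 0.0882% and 0.0949% of their counts. HSPE1 also shares exons with the read-through gene HSPE1-MOB4, so reads could be divided among these genes. HSPE1-MOB4 was at 18.2 to 20.1 FPKM in NC and 17.9 to 19.3 in siFSCN1 (-0.20 ± 0.06, adjusted p = 0.0100). It was not called with library totals, with upper quartile scaling or without NC 3 (-0.17, adjusted p = 0.0853). HSPA9, the mitochondrial HSP70 that drives protein import, was at 46.1, 46.1 and 45.1 FPKM in NC and 33.3, 33.3 and 34.5 in siFSCN1 (-0.61 ± 0.04, adjusted p = 5.91e-11).

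ER chaperones were the exception within the HSP class, as none of the 3 was called lower. HSPA5 (BiP), the ER HSP70, was at 66.1, 65.9 and 66.2 FPKM in NC and 72.5, 70.8 and 75.1 in siFSCN1, higher in 3 of 3 libraries on this scale, while its log2 fold change was -0.03 ± 0.04 (adjusted p = 0.529) with TMM, 0.16 (adjusted p = 5.59e-04) with library totals and 0.30 (adjusted p = 1.12e-06) with loess offsets. HSP90B1 (GRP94), the ER HSP90, was at 38.0, 39.3 and 39.3 FPKM in NC and 46.4, 45.4 and 47.1 in siFSCN1 (0.09 ± 0.03, adjusted p = 0.0363), and this call was lost with RLE scaling and whenever any of the 6 libraries was left out (0.06 to 0.08). HSPA13, an HSP70-like protein of ER-derived microsomes, was at 3.38, 4.01 and 3.72 FPKM in NC and 5.61, 6.05 and 6.39 in siFSCN1 (0.54 ± 0.07, adjusted p = 1.48e-06). The direction for HSPA5 thus depended on the scaling, and that for HSPA13 did not.

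Ratios within a library, for pairs chosen after their values were seen, showed the separation between ER and cytosolic relatives independently of the scaling factor of a library. HSPA5 amounted to 0.281, 0.272 and 0.275 of HSPA8 FPKM in NC and to 0.489, 0.524 and 0.518 in siFSCN1. HSP90B1 amounted to 0.0966 ± 0.00123 (SD, n = 3) of HSP90AB1 in NC and to 0.148 ± 0.0015 in siFSCN1. Neither ratio overlapped between the groups (exact permutation test, two-sided, p = 0.1 for each).

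Of 11 cytosolic DNAJ members tested, 5 fell and 2 rose, and the most abundant was among those that fell. Over all tested genes 33.2% were called lower and 35.1% higher, and over those at 10 FPKM or more 65.7% and 19.3%. DNAJA1, the most abundant DNAJ gene and a general partner of HSP70, was at 90.8, 94.2 and 96.3 FPKM in NC and 67.1, 65.0 and 70.8 in siFSCN1 (-0.64 ± 0.04, adjusted p = 8.22e-11). DNAJB1, the stress-inducible partner needed for dissolving aggregates, was at 19.4, 19.3 and 19.9 FPKM in NC and 11.4, 10.5 and 10.9 in siFSCN1 (-1.004 ± 0.04, adjusted p = 1.64e-13). Neither gene overlapped between the groups. DNAJA2 was at 14.7, 15.7 and 15.6 FPKM in NC and 14.2, 14.1 and 13.9 in siFSCN1 (-0.29 ± 0.04, adjusted p = 1.14e-05), a gap much smaller than that of DNAJA1. DNAJB6, known for keeping polyglutamine proteins soluble, and DNAJC7, which binds both HSP70 and HSP90, also fell (-0.31 ± 0.05 and -0.34 ± 0.04), although DNAJB6 was not called by limma at pseudocounts of 0.1 or 1 (adjusted p = 0.0511 and 0.0539).

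Nuclear and mitochondrial J-domain proteins gave further falls. DNAJC8, a spliceosome-associated protein, was at 24.3, 24.9 and 25.0 FPKM in NC and 20.5, 19.5 and 19.2 in siFSCN1 (-0.49 ± 0.04, adjusted p = 1.49e-08). DNAJC9, a histone chaperone, was at 22.8, 23.7 and 23.5 FPKM in NC and 19.6, 18.2 and 18.8 in siFSCN1 (-0.47 ± 0.04, adjusted p = 2.23e-08). Both were lower in every siFSCN1 library. DNAJA3, the mitochondrial partner of HSPA9, was at 11.4, 11.6 and 11.6 FPKM in NC and 9.42, 9 and 9.5 in siFSCN1 (-0.47 ± 0.04, adjusted p = 1.47e-08). DNAJC11, a protein that associates with the mitochondrial contact site complex, was at 9.67, 9.78 and 10.01 FPKM in NC and 8, 6.75 and 8.1 in siFSCN1 (-0.53 ± 0.06, adjusted p = 2.46e-07).

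Other mitochondrial J-domain genes rose, so that 2 of the 5 fell and 3 rose. Over all tested genes 33.2% were called lower and 35.1% higher. DNAJC15, an import-motor protein of low abundance, was at 0.23, 0.27 and 0.31 FPKM in NC and 0.63, 0.46 and 0.37 in siFSCN1 (0.67 ± 0.18, adjusted p = 0.00265). Its groups did not overlap but its siFSCN1 libraries differed widely. DNAJC19, the import-motor relative of DNAJC15, and DNAJC30, which associates with the ATP synthase, had log2 fold changes of 0.20 ± 0.07 (adjusted p = 0.0174) and 0.35 ± 0.07 (adjusted p = 1.45e-04). DNAJC19 was not called by DESeq2 (0.18, adjusted p = 0.0641) or without NC 2, NC 3, siFSCN1 1 or siFSCN1 2, where its log2 fold change was 0.13 to 0.19.

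In the ER, the J-domain genes were split. DNAJB9 (ERdj4), a BiP partner that restrains the stress sensor IRE1, was at 8.25, 9.02 and 9.45 FPKM in NC and 20.7, 19.7 and 20.5 in siFSCN1 (1.02 ± 0.05, adjusted p = 1.12e-11). DNAJC3 (p58IPK), which inhibits the kinase PERK and assists BiP, was at 3.56, 3.40 and 3.67 FPKM in NC and 6.35, 5.95 and 6.5 in siFSCN1 (0.66 ± 0.05, adjusted p = 3.39e-09). Every siFSCN1 library was above every NC library for both. By contrast DNAJB12, an ER-membrane protein that faces the cytosolic HSP70, was at 6.78, 6.39 and 6.93 FPKM in NC and 5.3, 4.82 and 5 in siFSCN1 (-0.58 ± 0.05, adjusted p = 2.05e-08), and its relative DNAJB14 fell by 0.29 ± 0.08 on the log2 scale (adjusted p = 0.00376), a call lost with library totals. DNAJC14, also of the ER membrane, was called lower on the TMM scale but not with library totals or upper quartile scaling. DNAJC1 was at 8.64, 8.54 and 8.66 FPKM in NC and 9.28, 9.16 and 9.72 in siFSCN1, and its log2 fold change of -0.04 ± 0.05 (adjusted p = 0.472) with TMM was 0.15 (adjusted p = 0.0224) with library totals. DNAJB11, DNAJC10 and DNAJC18 did not pass on the TMM scale. DNAJC10 was called higher with upper quartile scaling (0.15, adjusted p = 0.00803), library totals (0.22, adjusted p = 4.32e-04), loess offsets (0.22, adjusted p = 4.49e-04) and limma. DNAJC18 was called higher with library totals (0.28, adjusted p = 0.0493). DNAJB11 was called lower with RLE scaling (-0.11, adjusted p = 0.0465). The DNAJB9 to DNAJB1 ratio was 0.425, 0.469 and 0.476 in NC and 1.82, 1.88 and 1.88 in siFSCN1, so the order of the 2 genes was turned around. This pair sets the largest ER rise of the DNAJ class (1.02) against its largest cytosolic fall (-1.004). It does not stand for the compartments, whose DNAJ medians were -0.04 (ER) and -0.12 (cytosol).

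The remaining rises lay in other DNAJ genes and in HSPBAP1. DNAJC12, which assists the aromatic amino acid hydroxylases, was at 4.36, 3.32 and 3.59 FPKM in NC and 10.3, 9.88 and 10.2 in siFSCN1 (1.26 ± 0.09, adjusted p = 4.71e-10). DNAJC6 (auxilin), which uncoats clathrin vesicles, was at 0.58, 0.49 and 0.53 FPKM in NC and 0.97, 1.12 and 1.18 in siFSCN1 (0.86 ± 0.12, adjusted p = 5.66e-06). Neither gene overlapped between the groups. DNAJC28 had 9 to 15 counts in NC and 41, 16 and 44 in siFSCN1 (FPKM 0.16, 0.11 and 0.09 against 0.43, 0.17 and 0.46, log2 fold change 1.37 ± 0.39, adjusted p = 0.00474), and its TMM-scaled values overlapped. HSPBAP1, which binds HSPB1 and is no chaperone itself, was at 0.84, 1.04 and 0.94 FPKM in NC and 1.54, 1.43 and 1.22 in siFSCN1 (0.41 ± 0.12, adjusted p = 0.00606), a call that was lost with loess offsets (0.26, adjusted p = 0.066). DNAJC4, DNAJC21, DNAJC24 and DNAJC27 also rose, by 0.20 to 0.61 on the log2 scale, although DNAJC21 did not pass without NC 1 (0.16, adjusted p = 0.0647) or without siFSCN1 3 (0.14, adjusted p = 0.0765).

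Among the DNAJ genes that did not pass, DNAJC5 (cysteine string protein of secretory vesicles) was the most abundant, at 11.8, 11.5 and 11.6 FPKM in NC and 12.6, 11.95 and 12.3 in siFSCN1 (-0.09 ± 0.04, adjusted p = 0.0744). It passed with RLE scaling (-0.11, adjusted p = 0.0401) and without siFSCN1 1 (-0.11, adjusted p = 0.0442). DNAJB2, DNAJB4, DNAJB5, DNAJB13, DNAJC2, DNAJC13, DNAJC16, DNAJC17 and DNAJC25 did not pass on the TMM scale either. With library totals DNAJB2, DNAJB4, DNAJC13 and DNAJC25 were called higher (0.18, 0.25, 0.31 and 0.39, adjusted p = 0.0168, 0.00104, 0.0002 and 0.00473). DNAJB13 was called higher by limma (adjusted p = 0.0398 and 0.0279). DNAJC2 was called lower with RLE scaling (-0.14, adjusted p = 0.0371) and DNAJC16 with loess offsets (-0.26, adjusted p = 0.0327). The read-through gene DNAJC25-GNG10 was at 19.2, 22.1 and 22.4 FPKM in NC and 12.9, 10.2 and 11.03 in siFSCN1 (-1.06 ± 0.07, adjusted p = 2.25e-10). It shares exons with DNAJC25, which was at 2.05 to 2.26 FPKM in NC and 2.55 to 2.95 in siFSCN1 (0.21 ± 0.11, adjusted p = 0.108), and with the G-protein subunit gene GNG10, which is not analysed here, so that its reads cannot be ascribed to a chaperone. HSPB11 likewise carries a heat shock protein symbol but encodes an intraflagellar transport protein, and fell by 0.67 ± 0.07 (adjusted p = 1.26e-07). Without the read-through genes, HSPB11, HSPBP1 and HSPBAP1, 15 of 23 HSP members fell and 3 rose, and 13 of 39 DNAJ members fell and 12 rose.

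Grouped by known compartment, 13 of 18 cytosolic HSP members fell and 1 rose (median -0.59), all 3 mitochondrial HSP members fell (median -0.61, with HSPD1 not lower under library totals or loess offsets), and of the 3 ER members none fell and 2 rose. The rise of HSP90B1 was lost with RLE scaling, by DESeq2 and whenever any 1 library was left out. Of all tested genes 33.2% were called lower and 35.1% higher, and of those at 10 FPKM or more 65.7% and 19.3%. The 3 mitochondrial HSP members all lay in that range of abundance. The cytosolic DNAJ members had a median of -0.12, and of 9 ER DNAJ members 3 fell and 2 rose (median -0.04). This ER tally depended on the scale. With library totals DNAJB14 and DNAJC14 were not called lower, and DNAJC1, DNAJC10 and DNAJC18 were called higher. In summed FPKM, the cytosolic HSP members went from 1220, 1250 and 1240 in NC to 930, 860 and 889 in siFSCN1. The ER members of the HSP class went from 108, 109 and 109 to 124, 122 and 129, and those of the DNAJ class from 41.1, 41.6 and 43.0 to 56.4, 54.3 and 57. These sums have the scale of the library totals, on which values lie 0.19 (log2) higher in siFSCN1 than with TMM.

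**Figure D4:**
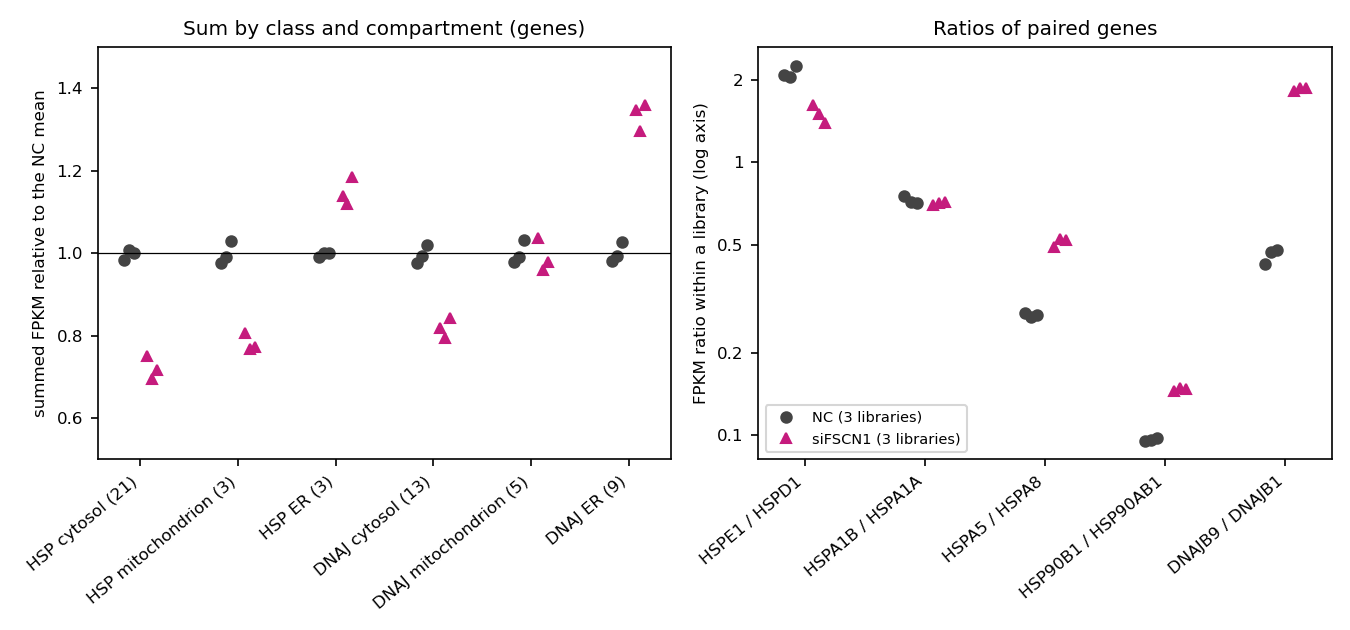
Left, summed FPKM relative to the NC mean (y axis) for HSP and DNAJ genes of 3 compartments in each NC library (grey circles) and siFSCN1 library (magenta triangles), with the number of genes in brackets. Right, ratio of FPKM between paired genes within a library (y axis, log scale), in which DNAJB9 over DNAJB1 moves from 0.456 to 1.86 and HSPA5 over HSPA8 from 0.276 to 0.51, while HSPA1B over HSPA1A stays near 0.7.

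As a whole, the HSP class summed to 1640, 1680 and 1690 FPKM in NC and 1320, 1240 and 1270 in siFSCN1, a ratio of 0.764. Its share of all FPKM was 0.494% ± 0.00583 (SD, n = 3) in NC and 0.368% ± 0.00755 in siFSCN1. The DNAJ class summed to 336 ± 7.7 FPKM in NC and 308 ± 8.84 in siFSCN1 (ratio 0.917). DNAJA1 alone held 24.9% of the DNAJ sum, and without it the FPKM ratio was 0.992. On TMM-scaled CPM the DNAJ class, DNAJA1 included, went from 1910 to 1570 (ratio 0.824).

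Members with a heat shock element in a promoter window were compared with those without. All 7 members with the 3 blocks shown above fell, with a median log2 fold change of -0.64, although HSPD1 was not lower with library totals or loess offsets and DNAJB6 was not called by limma. Of the 54 tested members with a window but without the 3 blocks, 22 fell and 15 rose (median -0.06). Outside the 2 classes, 22 of 48 tested genes with the 3 blocks were called lower and 14 higher (median -0.15), against 36.3% of 11342 without them called lower. With 2 blocks counted, 12 of 15 tested members fell and 1, DNAJC6, rose, and without them 17 of 46 fell and 14 rose (median -0.001). Members with the element were also the more abundant ones. Among members at 10 FPKM or more, all 9 with 2 or more blocks fell (median -0.64), and 10 of 15 without them fell and 3 rose (median -0.47). Of 140 genes of that abundance outside the 2 classes with 2 blocks, 67.9% were called lower (median -0.27), against 67.5% of 2217 without them (median -0.29). For the 3 blocks at that abundance, all 5 members with them fell (median -0.64), as did 14 of 19 members without them (median -0.47). Outside the 2 classes 6 of 9 genes with the 3 blocks were called lower (66.7%), against 67.5% of 2348 without them. HSPA5 and HSP90B1, which carry the ER element shown above, had log2 fold changes of -0.03 and 0.09 on the TMM scale.

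**Figure D5:**
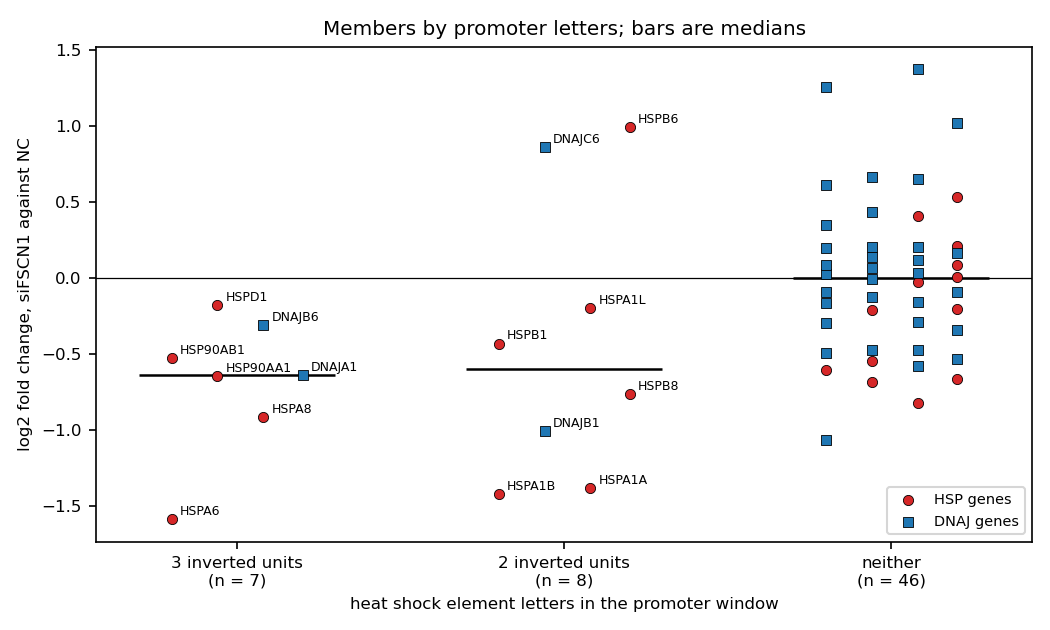
Log2 fold change of siFSCN1 against NC (y axis) for tested HSP genes (red circles) and DNAJ genes (blue squares) with 3 inverted units, 2 inverted units only, or neither in a promoter window, with bars at the medians (-0.64, -0.60 and -0.001) and horizontal positions chosen for legibility. On the TMM scale used here all 7 genes of the first group lie below 0 (HSPD1 does not with library totals or loess offsets, and DNAJB6 was not called by limma), while the 46 genes of the last lie on both sides.

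The partners of these chaperones under other symbols were described from lists assembled for this purpose. Of 16 HSP90 cochaperones 12 fell and 2 rose, with a median log2 fold change of -0.45, beside the 33.2% of all tested genes and 65.7% of those at 10 FPKM or more that were called lower. The fall of PPP5C was not called with library totals, loess offsets or limma, nor the rise of CDC37L1 by DESeq2, with no filter or without NC 2, NC 3, siFSCN1 1 or siFSCN1 2. FKBP4, a prolyl isomerase of steroid receptor complexes, was at 42.9, 42.7 and 43.8 FPKM in NC and 21.9, 21.0 and 21.5 in siFSCN1 (-1.17 ± 0.04, adjusted p = 9.83e-15). STIP1 (HOP), which hands clients from HSP70 to HSP90, was at 78.5, 81.4 and 77.5 FPKM in NC and 43.1, 41.4 and 40.9 in siFSCN1 (-1.09 ± 0.04, adjusted p = 3.15e-14). Both genes were lower in every siFSCN1 library, and STUB1 (CHIP), the ubiquitin ligase of chaperone clients, and PTGES3 (p23), which stabilises closed HSP90, fell too (-1.10 ± 0.06 and -0.87 ± 0.04).

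Of 11 nucleotide exchange factors and regulators of HSP70, 7 fell and 2 rose (median -0.23), and with library totals 5 were lower and 3 higher. Beside them, 33.2% of all tested genes and 65.7% of those at 10 FPKM or more were called lower. BAG2 and BAG6 were not called lower with library totals, loess offsets or limma, and the rise of SIL1 was not called with RLE scaling or by DESeq2. BAG2 also lost its call without NC 2, NC 3 or siFSCN1 1, and SIL1 without any library other than NC 2. HYOU1, the ER member of the HSP110 kind, was at 9.37, 9.55 and 9.15 FPKM in NC and 3.65, 3.25 and 3.65 in siFSCN1 (-1.58 ± 0.05, adjusted p = 2.77e-14), so it fell while the ER chaperones HSPA13, DNAJB9 and DNAJC3 rose. BAG3, the partner of HSPB8, fell by 0.73 ± 0.04 (adjusted p = 2.02e-11). HSF1 was at 16.4, 16.0 and 16.2 FPKM in NC and 14.8, 13.4 and 13.1 in siFSCN1 (-0.40 ± 0.05, adjusted p = 4.76e-07). HSF2 and HSBP1, a small HSF1-binding protein, also fell (-0.40 ± 0.11 and -0.70 ± 0.04), although HSF2 was not called with library totals (-0.22, adjusted p = 0.0984) or by limma. HSF4, a factor best known in the lens, had 38 to 53 counts in NC and 254 to 280 in siFSCN1 (2.31 ± 0.15, adjusted p = 1.36e-10).

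Of 8 chaperones of the same families under other symbols, 4 fell and 4 rose, beside 33.2% of all tested genes called lower and 35.1% higher. The rises of GAK and HSCB were not called with RLE scaling or by DESeq2. That of GAK was also lost whenever any 1 library was left out, and that of HSCB without NC 1, NC 3, siFSCN1 1 or siFSCN1 3. CRYAB, a small heat shock protein whose gene overlaps HSPB2, had 34 to 53 counts in NC and 201 to 325 in siFSCN1 (2.41 ± 0.18, adjusted p = 9.54e-10). TRAP1, the mitochondrial HSP90, was at 43.8, 46.5 and 44.1 FPKM in NC and 29.6, 28.9 and 28.4 in siFSCN1 (-0.80 ± 0.04, adjusted p = 2.36e-12), and SEC63, the J-domain protein of the ER translocon, rose (0.63 ± 0.05, adjusted p = 1.48e-09). All 6 prefoldin subunits, which pass nascent actin and tubulin to the chaperonin, fell on the TMM scale (median -0.48), where 65.7% of genes at 10 FPKM or more were called lower, and PFDN5 was not called with library totals, loess offsets or limma. Of 8 genes of mitochondrial protein quality control 6 fell and 2 rose on the TMM scale, whereas 3 fell and 2 rose with library totals, and their summed FPKM was 78.2 to 79 in NC and 79 to 82.4 in siFSCN1. Of 11 ER lectin chaperones and disulfide isomerases 4 fell and 4 rose on the TMM scale, whereas 2 fell and 7 rose with library totals.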

How the data were processed

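The libraries were directional poly(A) libraries. The authors trimmed reads, aligned them to GRCh38 (with HISAT2 per the study's methods, TopHat2 per the submitters' processing notes), kept uniquely mapped reads and deposited raw counts per gene and FPKM. Which program counted the reads, whether it used strand and which annotation it used are not given in the sources used here, so reads of overlapping opposite-strand genes may be mixed.

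Counts of NC and siFSCN1 were compared with edgeR 4.0.16 in R 4.3.3 (TMM scaling, filterByExpr, glmQLFit and glmQLFTest), called at an adjusted p under 0.05, and checked on simulated data. The common biological coefficient of variation was 5.94%. Alternatives were RLE, upper quartile, library-total and loess scaling, DESeq2 1.42.0, other filters, limma 3.58.1 on log2(FPKM + 0.1) and log2(FPKM + 1), leaving out each library, and a replicate block. Ratios were compared by exact permutation.

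Members and gene lists were chosen with earlier results of these data known. Values are given for the 12 HSP and 10 DNAJ genes of highest mean FPKM, for the 5 largest rises and falls of each class that passed, and for any other member or list gene described. Overlaps and coordinates came from GENCODE annotation and RefSeq. Replicates of a group differed by more than counting noise (chi-square per degree of freedom 2.95 to 7.49). Depth was 27967301 to 36560919 counts per library.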

Additional observations from a re-analysis of the deposited data

How the results depend on the processing

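The total counts of HSP and of DNAJ genes that passed stayed within 1.5 times the reported ones under every alternative. With library totals 7 HSP and 19 DNAJ genes were higher. DNAJ genes changed at least 2-fold numbered 4 with library totals, 3 with upper quartile scaling, loess offsets or the stricter filter, and 2 with a minimum FPKM or limma at either pseudocount. None of them was a fall with library totals, upper quartile scaling, a minimum FPKM or limma. The HSP median log2 fold change was -0.55 with RLE and with DESeq2, -0.41 with upper quartile scaling, -0.34 with library totals, -0.30 with loess offsets, -0.44 with no filter, -0.50 with the stricter filter, -0.49 with a minimum FPKM, and -0.36 and -0.31 with limma at pseudocounts of 0.1 and 1. The DNAJ median was 0.13 with upper quartile scaling, 0.20 with library totals, 0.17 and 0.11 with limma, and -0.0246 without NC 2. Without each library in turn the HSP median was -0.57 to -0.52 and the DNAJ median -0.0246 to 0.0141.

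Directions turned for 4 of the 34 members of highest abundance or largest called change: HSPA5, DNAJC1, DNAJC5 and HSPD1. Over all 67 tested members 64 of 1123 values turned, 20 of them in these 34. Among the other members, DNAJC14 and DNAJC22, called lower with TMM, were at 0.02 and 0.06 with library totals. HSPA5 was 0.0914 with upper quartile scaling, 0.16 with library totals, 0.30 with loess offsets, 0.0024 with the stricter filter, 0.0591 with a minimum FPKM and 0.14 with limma at both pseudocounts. DNAJC1 was 0.0755, 0.15 and 0.0081 with the same scalings, 0.0431 with a minimum FPKM, and 0.12 and 0.11 with limma. DNAJC5 was 0.0263, 0.0958 and 0.086 with those scalings, and 0.0744 and 0.0693 with limma. HSPD1 was 0.0105 with library totals and 0.16 with loess offsets. The summed HSP ratio was 0.715 and the DNAJ ratio 0.824 on TMM-scaled CPM, and the DNAJ ratio 0.992 without DNAJA1. With 2 blocks instead of 3, 25.8% of members carried the heat shock element. The causes of these shifts were not tested beyond the scalings themselves.

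Same-numbered libraries did not deviate together (correlations of -0.0841 to 0.0398). The labels do not say whether same-numbered libraries were handled together, and these correlations cannot exclude it. With a replicate block 22 HSP and 27 DNAJ genes passed, with medians of -0.53 and 0.01. Over the 67 tested members and all alternatives, 968 of 1123 values kept direction and call. Members under about 50 counts, such as HSPA6 and DNAJC28, are limited by depth.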
